A study of Homo sapiens with 6 samples.

Results

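The deposited count table of a cell-culture experiment on FXYD3 holds 232 rows that have an identifier and coordinates but no gene name, among 58967 rows in all. All 232 were taken, by the rule that the name field is empty. How these rows were predicted is not given, so reads of either group may have decided which rows exist. Their identifiers are a fixed prefix followed by a running number, and each is called here by that number (locus 129). The cells are LS174T, an established human line from a colorectal adenocarcinoma, labelled as goblet-like. The 6 libraries are 3 of wild-type cells and 3 labelled FXYD3 knockout, and no treatment or time is named for either group. The editing method and the number of clones are not in the labels. Nor is it said whether the 3 libraries of a group were separate cultures, so p-values measure only how far these libraries scatter, and that scatter may be technical.

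Rows of this kind are transcribed stretches that a reference annotation does not hold. In human cells many such transcripts start in transposable elements, the copied sequences that make up a large part of the genome. Endogenous retroviruses are one class, remnants of germline infections whose long terminal repeats can act as promoters. HERV-H is one of their families and is known for its transcription in pluripotent stem cells and in colorectal tumours. ESRG, the embryonic stem cell-related gene, is a HERV-H-derived transcript. LINE-1 elements are another class, which encode a reverse transcriptase and copy themselves through RNA.

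Named genes received 15417232 to 19453217 counts per library. FXYD3 had 3.88 ± 1.07 CPM (counts scaled to library size after TMM; SD, n = 3) in wild type and 5.61 ± 0.932 CPM (SD, n = 3) in the libraries labelled knockout. The edgeR adjusted p was 0.0526, so the targeted transcript was not lower under that label, and the group is called knockout-labelled throughout. These counts do not measure FXYD3 protein, so loss of the protein was not tested. Epithelial markers summed to 9320 to 10800 CPM in every library, and all 7 were above 1 CPM. Goblet markers summed to 922 to 1060 CPM in wild type and 538 to 582 CPM in the knockout-labelled libraries. Most of that fall was in AGR2, from 679 ± 80.9 to 461 ± 31.0 CPM, and MUC5AC, from 209 ± 16.3 to 21.3 ± 5.24 CPM (SD, n = 3 each). CLCA1 and ZG16 had 15 and 6 counts over all libraries. The immune list was at 31.4 to 34.0 CPM, nearly all of it LYZ, with PTPRC and CD3E at 0 counts. The stromal list was at 1.10 to 2.11 CPM in wild type and 6.42 to 7.92 CPM in the knockout-labelled libraries, most of the latter from COL3A1 (0.313 ± 0.0900 and 5.62 ± 0.452 CPM; SD, n = 3 each), while PECAM1 was at 0 counts and COL1A1, DCN and VWF had 18, 13 and 10 counts over all libraries. The part of these marker levels in the changes of the loci was not tested. In bulk RNA, fewer cells that express a locus and less RNA of it per cell cannot be told apart.

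Of the 232 loci, 206 lay on 23 chromosomes and 26 on 15 unplaced or unlocalised scaffolds of GRCh38. Chromosome 5 held most of them (17 loci), followed by chromosomes 1 and 4 (16 each) and 6 and 9 (15 each). The strand column gave plus for 130 and minus for 102. The length column ran from 200 to 22965 bases with a median of 1015.5, against a median of 759 bases for the named lincRNA genes and 4215 for protein-coding genes. In 156 loci the length was below the distance from start to end, which is how a row with several exons looks, and in 76 both were equal. Rows that overlapped each other were not rare: 29 loci shared bases with another of the 232, and counting each such place once left 217 sites.

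The loci lay almost without exception outside named genes, which may be a condition of their prediction, since its method is not given. Only locus 206, on scaffold GL000218.1, overlapped one (AL354822.1, on the same strand, in an annotated exon). Of the others, 100 had their nearest named gene within 5 kb, 85 at 5 to 50 kb and 35 farther away, and 11 stood on a scaffold with no named gene. The median distance was 6.85 kb. The nearest named gene was protein-coding for 109 loci, a lincRNA for 39 and a processed pseudogene for 26. Within 5 kb, 43 loci lay upstream of the gene on its own strand and 31 upstream on the opposite strand, against 11 and 15 downstream. None had a member of the goblet and mucus list as its nearest gene or as an overlap. RefSeq, on the same assembly in a later patch, had a gene over 87 of the 232 loci, most with provisional LOC symbols.

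For 18 loci the deposited start fell within 100 bases of the start of a RefSeq gene on the same strand. The RefSeq promoter windows of GRCh38.p14 (300 bases around the gene's start) are printed for the 2 of these loci that fell in the knockout-labelled libraries and for the only one whose protein note points to HERV-H. The sequences are written 5′ to 3′ on the strand of the locus, and capitals run from the deposited start of the locus to the end of the window. The windows are chr1:22163093-22163392 (plus strand), chr6:170160395-170160694 (minus strand) and chr2:127811001-127811300 (plus strand).
locus 1, RefSeq LOC105376850: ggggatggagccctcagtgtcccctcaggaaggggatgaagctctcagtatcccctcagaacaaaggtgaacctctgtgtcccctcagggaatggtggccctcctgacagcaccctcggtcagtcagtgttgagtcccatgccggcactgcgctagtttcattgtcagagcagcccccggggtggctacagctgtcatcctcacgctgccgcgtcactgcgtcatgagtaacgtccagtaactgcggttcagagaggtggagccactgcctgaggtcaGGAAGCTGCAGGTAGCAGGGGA
locus 154, RefSeq LOC105378153: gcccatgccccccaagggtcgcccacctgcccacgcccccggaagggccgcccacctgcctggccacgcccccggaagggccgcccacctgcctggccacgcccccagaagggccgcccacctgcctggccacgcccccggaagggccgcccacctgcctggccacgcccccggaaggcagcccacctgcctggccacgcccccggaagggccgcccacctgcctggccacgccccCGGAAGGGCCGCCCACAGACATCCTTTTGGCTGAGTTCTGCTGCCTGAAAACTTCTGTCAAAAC
locus 74, RefSeq LOC124907885: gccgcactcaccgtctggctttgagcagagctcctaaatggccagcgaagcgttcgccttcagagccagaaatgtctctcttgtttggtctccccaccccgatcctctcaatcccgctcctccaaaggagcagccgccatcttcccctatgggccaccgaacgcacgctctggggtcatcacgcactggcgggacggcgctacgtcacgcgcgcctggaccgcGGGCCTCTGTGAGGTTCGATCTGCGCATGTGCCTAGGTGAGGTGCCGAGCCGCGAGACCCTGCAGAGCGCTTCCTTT

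The start of locus 1 lay 28 bases inside the RefSeq gene, and those of loci 154 and 74 lay 14 and 27 bases before it. The window of locus 154 had 74.7% G and C, that of locus 74 had 63.3% and that of locus 1 had 60.0%, against a median of 58.7% over all 35116 promoter windows of the RefSeq table. Among the 18 windows, searched on both strands, 9 held GGGCGG, 8 held CCAAT and 2 held TATAAA, and the shares over all promoter windows were 45.0%, 34.6% and 11.5%. Of the windows printed, only that of locus 154 held one of these motifs (GGGCGG). These are letter matches, not sites of binding. The most abundant and the most changed HERV-H-noted loci had no RefSeq start within that distance.

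The deposited description field names a protein match for 119 of the loci, a comparison made by the authors. The embryonic stem cell-related gene protein is named for 25 loci and the HERV-H envelope protein for 5, and these 30 are called HERV-H-noted here. Another 10 loci match retroviral Pol proteins or proteins of the endogenous retrovirus groups K and 3, and 13 match LINE-1 proteins. The remaining 66 match other proteins, led by the C16orf89 protein (13 loci), and 113 have no match. Loci with no match were short (median 519 bases), and the HERV-H-noted and LINE-1-noted ones were longer (medians 2362 and 4453 bases). These classes were made after the values had been seen. Copies of one family resemble each other, and how the authors counted reads with several matches is not given in the sources used here, so the split of reads between similar copies is uncertain.

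The 232 loci took up a larger share of the knockout-labelled libraries. Their share of all counts was 0.134%, 0.150% and 0.130% in wild type and 0.216%, 0.230% and 0.250% in the knockout-labelled libraries, and the groups did not overlap. The 10 loci with most counts held 59.6% of the 191259 counts of all of them. Summed CPM of the HERV-H-noted loci was 614, 685 and 589 in wild type and 1080, 1147 and 1297 in the knockout-labelled libraries. The LINE-1-noted loci went from 149 ± 9.76 to 313 ± 15.4 CPM and the other retroviral ones from 186 ± 21.7 to 310 ± 36.2 CPM (SD, n = 3 each). Loci with no match went from 180 ± 11.0 to 214 ± 9.25 CPM, and those with other matches from 248 ± 9.18 to 293 ± 4.17 CPM. In 3 of these classes most of the rise of the sum came from 1 row. These were LINE-1-noted locus 26 (13.6 ± 1.68 to 162 ± 14.7 CPM) and other retroviral locus 129 (146 ± 17.8 to 253 ± 29.1 CPM). Among loci with no match it was locus 230 (1.63 ± 0.490 to 31.5 ± 7.15 CPM; SD, n = 3 each).

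**Figure D1:**
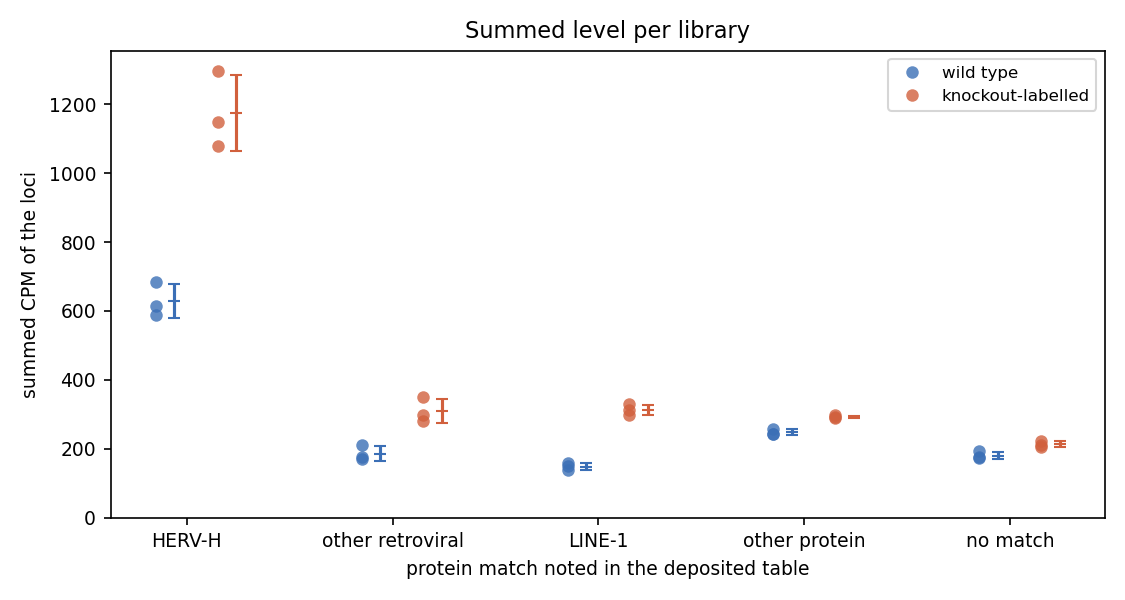
Summed CPM of the loci in each class of protein match (vertical axis), with 1 point per library and the mean ± SD of 3 libraries beside the points. The HERV-H-noted loci lie at 589 to 685 CPM in wild type and at 1080 to 1297 CPM in the knockout-labelled libraries. Most of the rise of the LINE-1, other retroviral and no-match sums comes from loci 26, 129 and 230, respectively.

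Of the 232 loci, 159 passed the filter on low counts and were tested in one fit with all named genes. The 73 that did not pass had 0 to 56 counts over the 6 libraries, among them 5 with no count at all. By edgeR's quasi-likelihood test at an adjusted p of 0.05, 44 loci were called higher and 12 lower under the knockout label. Over all 15510 rows tested, 12.1% were higher and 12.3% lower, against 27.7% and 7.55% of the loci. The median log2 change (knockout-labelled over wild type) of the tested loci was 0.22, against 0.00 over all rows. Named lincRNA genes had 98 of 658 tested higher (14.9%) and 43 lower (6.53%), with a median of 0.12. The difference between the loci and lincRNA genes was not tested. Named rows follow an annotation, whereas the loci may have been predicted from these reads, so the shares may not be like for like.

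Most of the rises were rows with a retroelement match. Of 28 HERV-H-noted loci tested, 19 were higher and 0 lower by edgeR, by DESeq2 and by limma voom, none was lower at an unadjusted p under 0.05 by any of these, and the median log2 change was 1.20. Of 7 other retroviral loci tested 4 were higher and 0 lower, again by each of the 3 tools and with none lower at the unadjusted level, and of 13 LINE-1-noted loci 6 were higher and 1 lower. These 3 classes gave 29 of the 44 rises from 48 loci tested. The 111 tested loci outside them had 15 higher (13.5%) and 11 lower (9.91%), near the shares over all rows. Being outside rests on the note alone. Among the 15, loci 230 and 45 overlap the HERV-H-noted loci 225 and 50, and locus 217 matches a Tigger transposable element protein. The difference between classes was not tested. By distance to a named gene, 11 of 69 tested loci within 5 kb were higher (15.9%) and 2 lower (2.9%). At 5 to 50 kb 16 of 57 were higher (28.1%) and 9 lower (15.8%), and farther away 12 of 23 (52.2%) and 1 (4.35%). Of 95 tested loci outside every RefSeq gene, 33 were higher (34.7%) and 3 lower (3.16%), against 11 (17.2%) and 9 (14.1%) of the 64 that overlapped one. Over all rows tested the shares were 12.1% and 12.3%. HERV-H-noted loci lay farther from named genes (median 17.1 kb, against 6.85 kb for all loci), and distance and class were not separated here.

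**Figure D2:**
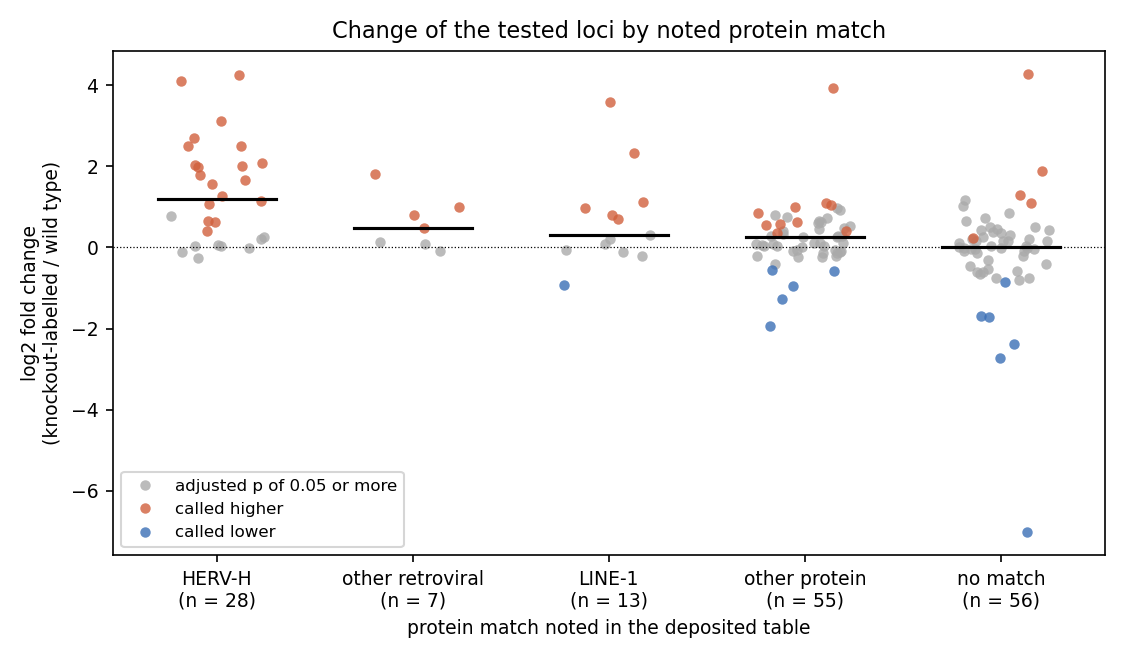
Log2 change of the 159 tested loci (vertical axis, knockout-labelled over wild type) by class of protein match, with 1 point per locus, colours for the edgeR call and a bar at the median. The median lies at 1.20 for the 28 HERV-H-noted loci and at 0.02 for the 56 loci with no match. The lowest point is locus 141, which had 0 counts in the knockout-labelled libraries, so its fitted change depends on the model and is no bound.

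The most abundant locus, 129 (chromosome 5, 136540915 to 136570082, plus strand), matches a retroviral Pol polyprotein, the precursor of protease, reverse transcriptase and integrase. It had 140, 166 and 132 CPM in wild type and 228, 245 and 285 CPM in the knockout-labelled libraries. All 3 knockout-labelled libraries lay above all wild-type ones, at a log2 change of 0.79 (SE 0.10, adjusted p = 6.82e-05). Locus 137, the HERV-H-noted row on the other strand of the same place, had 9 counts in all and was not tested.

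Locus 228 (chromosome X, 4540446 to 4546206, minus strand), HERV-H-noted and only 364 bases long, had the highest level per length of the 232 loci, 479 CPM per kb as a mean over 6 libraries. Its CPM were 149, 155 and 147 in wild type and 179, 220 and 197 in the knockout-labelled libraries. The groups were separate, but the rise was small (log2 change 0.40, SE 0.06, adjusted p = 3.17e-05).

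A pair of rows shares a place on chromosome 13. Locus 50 (66086244 to 66146769, minus strand), HERV-H-noted, had 127, 150 and 113 CPM in wild type and 190, 176 and 238 CPM in the knockout-labelled libraries. It was called higher (log2 change 0.63, SE 0.16, adjusted p = 0.0395), but not without wild-type library 1 or 3 (adjusted p = 0.0976 and 0.102) or with scaling by total counts (0.0529). Locus 45, overlapping it on the plus strand and without a protein match, had 41.8, 48.4 and 48.6 CPM against 48.6, 61.1 and 53.6 CPM. Those groups touch, and its call (log2 change 0.24, adjusted p = 0.0425) was lost under DESeq2 (0.0722), with replicate number as a block (0.0535), and when wild-type library 1 (0.26) or either of knockout-labelled libraries 2 (0.294) and 3 (0.0778) was dropped.

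Locus 122 (chromosome 4, 182814336 to 182820454, minus strand) was as abundant as the loci above and did not pass the test. This HERV-H-noted row of 6119 bases had 138, 143 and 134 CPM in wild type and 117, 132 and 138 CPM in the knockout-labelled libraries (log2 change -0.10, 95% interval -0.23 to 0.02, adjusted p = 0.252). Its nearest named gene is TENM3, a teneurin adhesion protein, whose end lies 11.3 kb away on the opposite strand. TENM3 fell from 4.49 ± 0.892 to 0.0539 ± 0.0513 CPM (SD, n = 3 each), a log2 change of -6.12 (SE 0.47).

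A further 5 of the 10 most abundant loci rose by at least 1 on the log2 scale. Locus 159 (chromosome 7, 113232877 to 113239238, plus strand), HERV-H-noted, had 36.5, 42.3 and 28.0 CPM in wild type and 127, 136 and 170 CPM in the knockout-labelled libraries. Its log2 change was 2.01 (SE 0.19, adjusted p = 0.00102). Locus 68 (chromosome 19, 5548601 to 5553213, plus strand) matches the HERV-H envelope protein and went from 31.6, 38.1 and 32.0 CPM to 136, 146 and 150 CPM. No library of one group came near those of the other (log2 change 2.09, SE 0.07, adjusted p = 8.39e-18).

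Locus 140 (chromosome 6, 6027787 to 6033760, plus strand), HERV-H-noted, had 35.9, 46.2 and 34.8 CPM in wild type and 75.6, 76.2 and 95.5 CPM in the knockout-labelled libraries, a log2 change of 1.08. Locus 113 (chromosome 4, 92026037 to 92031121, plus strand), another envelope match, had 30.7, 34.1 and 30.1 CPM against 63.0, 67.3 and 78.3 CPM, a log2 change of 1.14. In both, all knockout-labelled libraries lay above all wild-type ones.

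The steepest rise among the abundant rows was at locus 26 (chromosome 10, 76803570 to 76824362, minus strand), which matches the LINE-1 ORF2 protein, the element's endonuclease and reverse transcriptase. It had 15.4, 12.0 and 13.5 CPM in wild type and 146, 175 and 164 CPM in the knockout-labelled libraries (log2 change 3.57, SE 0.09, adjusted p = 1.39e-19). Locus 21, HERV-H-noted, overlaps it on the plus strand (76818454 to 76829967) and had 1.56, 1.35 and 0.682 CPM against 19.1, 16.3 and 26.9 CPM, a log2 change of 4.09 (SE 0.26). The strand setting of the counter is not given, so reads of such opposite rows may not be told apart. No gene name is attached to either, the nearest being a snoRNA model 5.41 kb from locus 21.

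**Figure D3:**
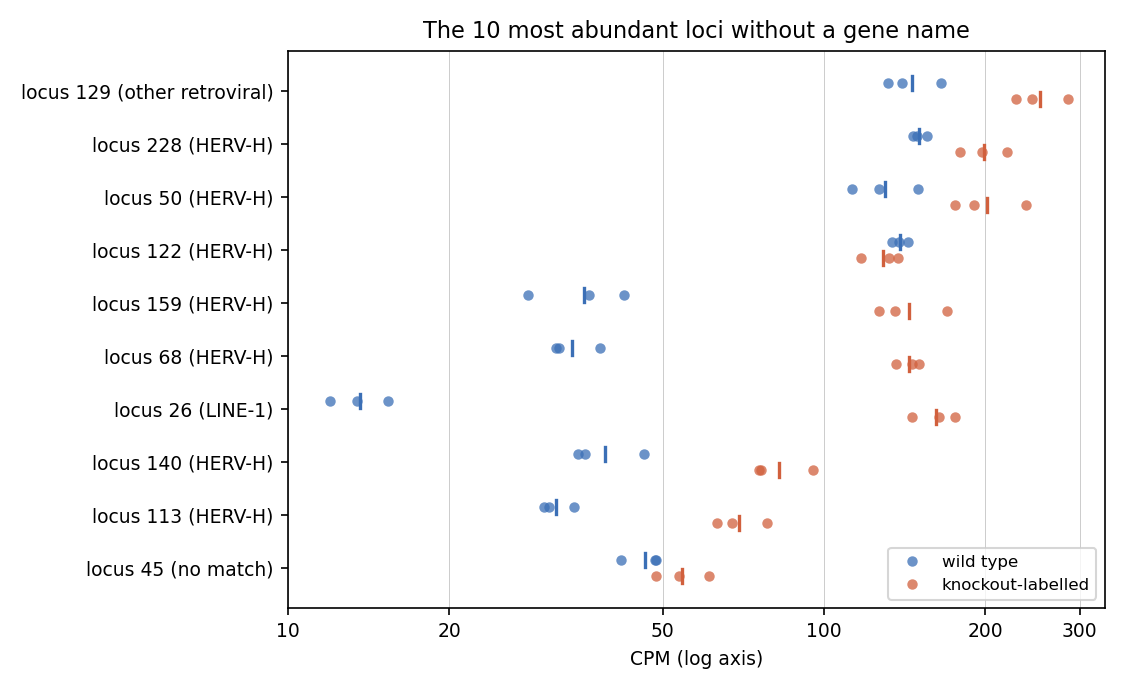
CPM of the 10 most abundant loci (horizontal log axis) in each library, with 1 point per library and a bar at the mean of 3, and the class of protein match in brackets. Locus 26 moves from 12.0 to 15.4 CPM in wild type to 146 to 175 CPM in the knockout-labelled libraries, and the libraries of locus 122 overlap between groups.

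The largest relative rises also came from rows that were low in wild type. Locus 230 (chromosome X, 109866113 to 109870862, minus strand), 431 bases long and without a match, had 33, 19 and 31 counts in wild type and 395, 772 and 499 in the knockout-labelled libraries. That is 1.63 ± 0.490 and 31.5 ± 7.15 CPM (SD, n = 3 each), a log2 change of 4.28 (SE 0.21, adjusted p = 7.81e-10). The row overlapping it on the opposite strand, locus 225, is HERV-H-noted and had 12 counts in all.

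Locus 73 (chromosome 2, 57192261 to 57198645, plus strand), HERV-H-noted and 4089 bases long, had 10, 5 and 5 counts in wild type and 104, 137 and 151 in the knockout-labelled libraries. Its log2 change was 4.25 (SE 0.28, adjusted p = 4.54e-12), and its nearest named gene, the lincRNA AC132153.1, lies 91.0 kb away. Locus 116 (chromosome 4, 155965019 to 155974464, plus strand) matches C16orf89 and had 4, 0 and 3 counts against 35, 40 and 38, a log2 change of 3.93 (SE 0.51). For both the groups were far apart, on few wild-type counts.

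Locus 164 (chromosome 7, 109636245 to 109647297, minus strand), HERV-H-noted, had 12, 9 and 11 counts in wild type and 85, 77 and 119 in the knockout-labelled libraries, a log2 change of 3.12. Locus 36 (chromosome 11, 95309418 to 95475002, plus strand), also HERV-H-noted and spanning 165585 bases for a length of 1591, had 27, 31 and 20 counts against 127, 174 and 212, a log2 change of 2.70. Locus 41 (chromosome 12, 4013022 to 4020757, plus strand) completed the 8 largest rises with 4, 3 and 3 counts against 11, 12 and 36. Most of its rise came from knockout-labelled library 3, and without that library its log2 change of 2.51 became 1.72 with an adjusted p of 0.0753.

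Among HERV-H-noted loci outside these rules, chosen after their values were seen, locus 88 on chromosome 20 rose from 15.3 ± 0.995 to 62.4 ± 3.23 CPM and locus 29 on chromosome 11 from 4.36 ± 0.850 to 24.9 ± 1.92 CPM (SD, n = 3 each). The 19 rises of the class spanned log2 changes of 0.40 to 4.25 and lay at 19 separate sites. The 9 HERV-H-noted loci that did not pass lay between -0.25 and 0.79. ESRG itself, the named gene that most of these loci match, was too low to test, with 0.173, 0.112 and 0.310 CPM in wild type and 0.839, 0.562 and 0.476 CPM in the knockout-labelled libraries.

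LINE-1-noted loci were less uniform. Besides locus 26, locus 94 on chromosome 22 rose from 2.03 ± 0.462 to 10.3 ± 1.29 CPM. Locus 223, on scaffold KI270751.1 (44389 to 71978, plus strand) and the longest of all at 22965 bases, rose from 6.14 ± 0.953 to 12.2 ± 2.21 CPM (log2 change 0.98, SE 0.15, adjusted p = 1.75e-05). Locus 148 on chromosome 6 was the one retroelement-noted row called lower, from 26.5 ± 2.95 to 14.1 ± 1.39 CPM (SD, n = 3 each; log2 change -0.92, SE 0.11, adjusted p = 1.59e-07). Loci 94 and 148 were chosen after their values were seen. Of the other LINE-1-noted rows called, all higher, loci 204 and 212 lie on scaffolds and locus 161 on chromosome 7, with log2 changes of 1.12, 0.71 and 0.80. Of the 18 loci tested on scaffolds, 8 were higher (44.4%) and 0 lower by edgeR, DESeq2 and limma voom, with none lower at an unadjusted p under 0.05. On chromosomes 36 of 141 tested loci were higher (25.5%) and 12 lower (8.51%), and over all rows tested the shares were 12.1% and 12.3%. The difference between scaffolds and chromosomes was not tested.

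The 5 rises without a protein match (loci 230, 33, 143, 104 and 45) had a median log2 change of 1.30, and the 10 among rows with other protein matches one of 0.74. The medians of the called rises were 1.99 for HERV-H-noted, 1.05 for LINE-1-noted and 0.90 for other retroviral rows. The most abundant rise with another protein match, locus 221 on scaffold KI270744.1, matches a zinc finger protein and went from 34.0 ± 4.93 to 43.5 ± 1.14 CPM (SD, n = 3 each). Locus 167 on chromosome 7, one of the C16orf89 matches, went from 6.14 ± 1.42 to 13.2 ± 2.70 CPM. The C16orf89 matches moved both ways, with loci 116 and 167 higher and loci 42 and 10 lower. The loci in these sentences that no other rule names (33, 143, 104, 221 and 167) were picked after their values were seen.

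Of the 12 falls, 6 were in rows without a protein match, 5 in rows with other matches and 1 in a LINE-1-noted row. Locus 141 (chromosome 6, 27757434 to 27761876, plus strand), 460 bases long, had 15, 17 and 16 counts in wild type and 0 in each knockout-labelled library. Set against a floor of 3 counts over that group, it was at least 16.2-fold lower (adjusted p = 1.22e-05). Its nearest named gene is a ribosomal protein pseudogene, RSL24D1P1, 18.7 kb away.

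Locus 43 (chromosome 12, 130195817 to 130199227, minus strand) had 38, 35 and 33 counts in wild type and 3, 6 and 7 in the knockout-labelled libraries, a log2 change of -2.72. Locus 42, on the same chromosome (130133063 to 130138492, plus strand), had 47, 49 and 46 counts against 34, 15 and 24, a log2 change of -0.95. Its call was lost on leaving out wild-type library 1 or 3 or knockout-labelled library 2 or 3 (adjusted p from 0.0513 to 0.159). The lincRNA AC026336.3, 0.201 kb downstream of locus 42 on its strand, fell as well (log2 change -1.56, SE 0.27).

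Locus 1 (chromosome 1, 22163371 to 22172993, plus strand), whose promoter window is printed above, had 25, 13 and 15 counts in wild type and 5, 1 and 4 in the knockout-labelled libraries (log2 change -2.37, SE 0.56). Locus 154 (chromosome 6, 170155546 to 170160458, minus strand), the other printed window of a locus that fell, had 28, 37 and 56 counts against 18, 9 and 10 (log2 change -1.71, SE 0.39). In locus 1 and locus 154 the groups do not overlap in CPM. Locus 74 (chromosome 2, 127811224 to 127813259, plus strand), the HERV-H-noted locus with a printed window, had a log2 change of 0.04 (SE 0.23) and lies 0.037 kb from WDR33, a factor of mRNA polyadenylation, on the opposite strand.

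Locus 10 (chromosome 1, 108534986 to 108536925, minus strand), with a C16orf89 match, had 43, 36 and 35 counts against 4, 10 and 16, a log2 change of -1.93. Loci 55 (chromosome 14) and 66 (chromosome 17) made up the 8 largest falls, at -1.68 (SE 0.37) and -1.27 (SE 0.24). The shortest row, locus 56 (chromosome 14, 101964243 to 101964442, plus strand), 200 bases long and 0.068 kb upstream of the dynein heavy chain gene DYNC1H1, had 1 count in wild type and 12 in the knockout-labelled libraries and was not tested.

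**Figure D4:**
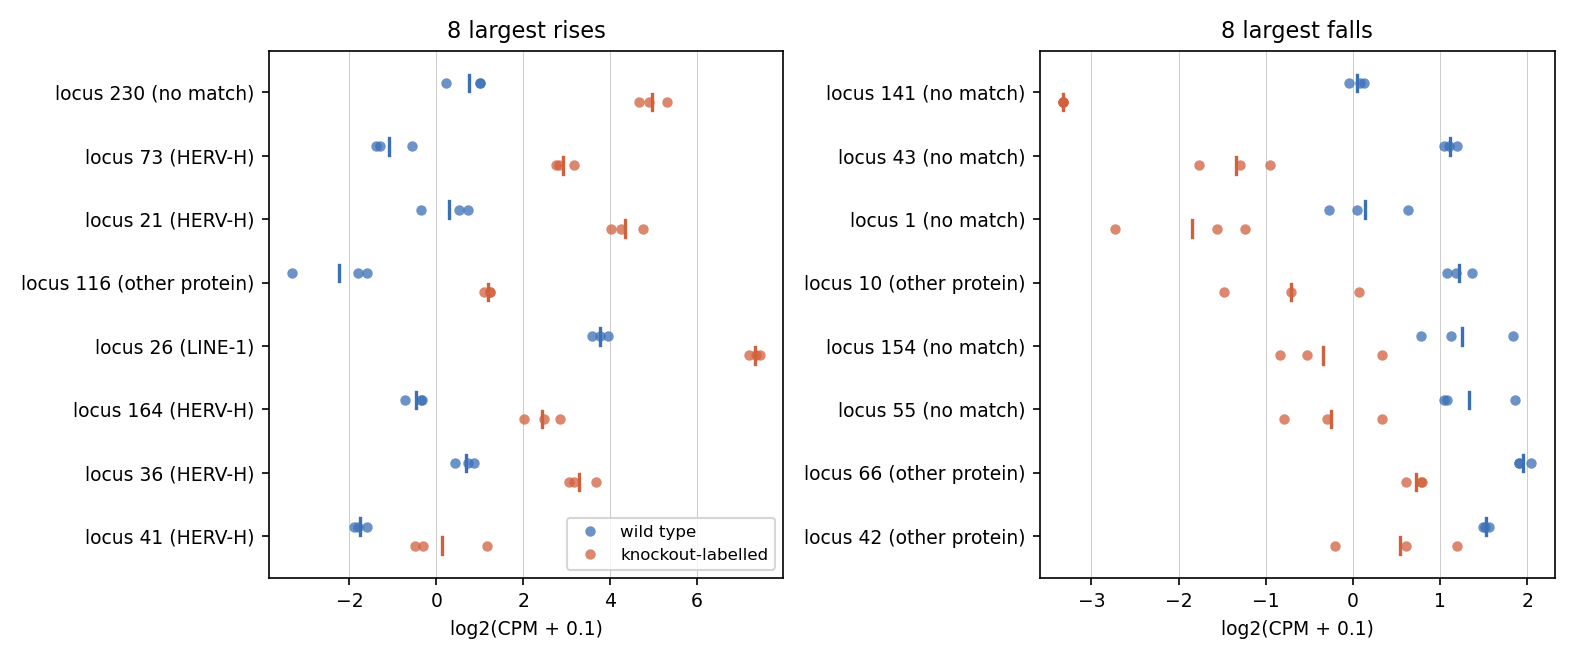
Levels of the loci with the 8 largest rises (left) and 8 largest falls (right) as log2(CPM + 0.1), with 1 point per library and a bar at the mean of 3. In the right panel locus 141 sits at the lower limit in all 3 knockout-labelled libraries, which hold 0 counts.

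Loci were then set beside their nearest named gene, since an unnamed row may be an unannotated part of it. Both were tested in 86 pairs. Of the 18 loci called in these pairs, 10 had a neighbour called in the same direction, 1 in the opposite direction and 7 a neighbour that was not called. As a description across pairs, which share the 6 libraries, Pearson's r of the log2 changes was 0.41, and 0.57 without locus 122 and TENM3. Named lincRNA genes beside their nearest non-overlapping named gene had an r of 0.73 over 216 pairs. By sign alone the order was reversed, with changes of the same sign in 62 of the 86 locus pairs and 116 of the 216 lincRNA pairs. The difference was not tested.

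Most of the retroelement-noted loci called, 29 higher and 1 lower, had no tested nearest gene and were not in the 86 pairs. Of the 8 that were, 7 had a neighbour called in the same direction. For the other rows this held for 3 of 10, with 1 neighbour called in the opposite direction and 6 not called, and for named lincRNA genes for 12 of 32. The difference between these classes was not tested. Locus 140 lies 20.2 kb upstream of NRN1, which encodes the cell-surface protein neuritin and rose by 0.73 on the log2 scale (SE 0.06). Loci 7 and 15, a Pol match and a HERV-H-noted row on opposite strands of one place on chromosome 1, lie 9.69 and 2.14 kb downstream of KCNK1, a potassium channel gene. KCNK1 rose by 0.63 (SE 0.05), and these loci rose by 0.48 (SE 0.12) and 0.64 (SE 0.21). RGS22, a regulator of G-protein signalling, rose by 2.07 (SE 0.51), with locus 180 in the 3′ direction at 1.82 (SE 0.28). RGS22 was low, at 0.327 ± 0.230 CPM in wild type and 1.44 ± 0.698 CPM in the knockout-labelled libraries (SD, n = 3 each). The lincRNAs AC138646.1, AP001790.1 and AL713998.1 rose beside loci 179, 36 and 151. They too were low, with means of 1.02, 0.781 and 0.267 CPM in wild type and 4.72, 2.50 and 1.15 CPM in the knockout-labelled libraries. Loci 7 and 15 share KCNK1 as their neighbour. The exception was locus 68, whose neighbour TINCR, 4.95 kb away on the opposite strand, had a log2 change of 1.07 (SE 0.49) with an adjusted p of 0.116.

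Other rows moved apart from their neighbour. Locus 33, 2.16 kb upstream of the cyclin D1 gene CCND1 on its strand, rose by 1.88 on the log2 scale (SE 0.53), while CCND1 had 0.01 (SE 0.06, adjusted p = 0.922). Locus 133, which overlaps the RefSeq models of the transporter gene SLC12A7 and of LOC107986396, had -0.58 (SE 0.13), and SLC12A7 had -0.01 (SE 0.06, adjusted p = 0.951). Locus 10 fell and FAM102B, 23.2 kb away on the opposite strand, rose by 0.24 (SE 0.07, adjusted p = 0.0169). Locus 108, by contrast, overlaps the RefSeq model of RGS12, another regulator of G-protein signalling, and was lower by 0.85 where RGS12 was lower by 0.71. Whether locus and neighbour differed in change was not tested in these pairs.

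**Figure D5:**
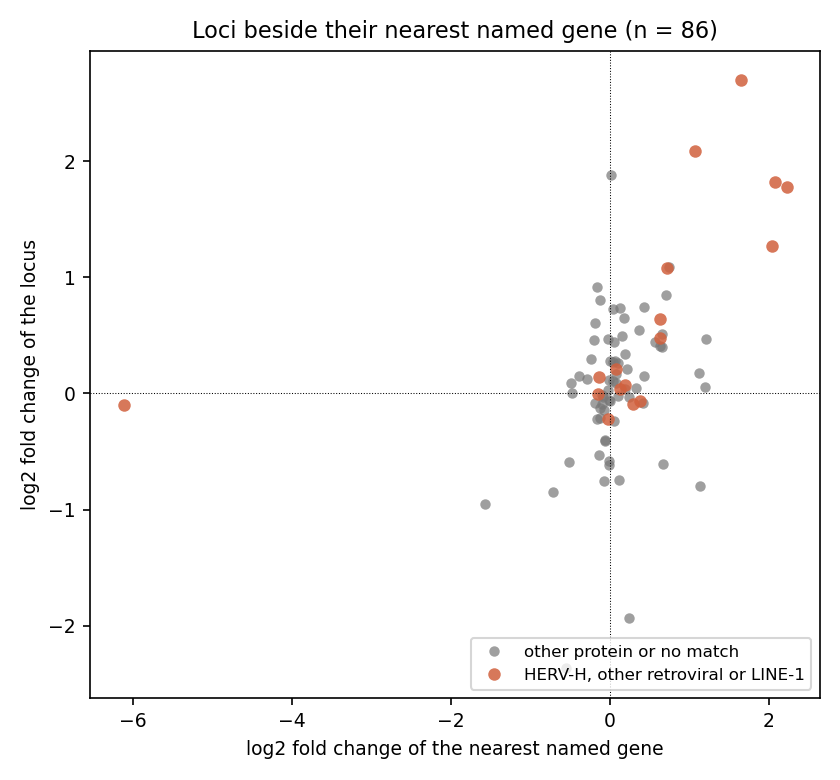
Log2 fold change of the locus (vertical axis) against that of its nearest named gene (horizontal axis) for the 86 pairs in which both were tested, with retroelement-noted loci in colour. The point at the far left is locus 122 beside TENM3 (-0.10 and -6.12).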

How the data were processed

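Poly(A) RNA of 6 LS174T libraries was sequenced, per the labels. The authors deposited 1 table of whole-number counts of reads per row, without normalization. The submitters' processing notes name HISAT2 2.0.5, featureCounts 1.5.0-p3 and the mouse build mm10, but all 58735 named rows carry human identifiers and 58724 have the start and end of GENCODE 29, so coordinates are those of the table on GRCh38. Not given in the sources used here are the strand setting, the treatment of reads with several matches and the way the unnamed loci were predicted. The protein matches are the authors', per the deposited description field.

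Counts were tested with edgeR 4.0.16 in R 4.3.3 (quasi-likelihood test, two-sided, TMM, filterByExpr with a minimum count of 10, robust estimation of the spread, no covariate). All rows entered 1 fit, with Benjamini-Hochberg adjustment over the 15510 rows tested. Library sizes and scaling came from named genes only, of which 15351 were tested. Log2 changes set the knockout-labelled group over wild type. CPM were computed here from the counts. Overlaps and distances come from the coordinates of the table. RefSeq genes and promoter windows are on GRCh38.p14, and 91.7% of 18662 protein-coding symbols started within 5 kb of the start in the table. Promoter windows were not compared for the 14 loci on chromosome 8, of which 2 are HERV-H-noted. No genome sequence was used. The testing step was checked on simulated counts.

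Loci were named by a rule: the 10 with the highest mean CPM, the 8 largest rises and falls among called loci with separate groups and at least 0.5 CPM, those with 0 counts in 1 group and at least 30 in the other, the longest and the shortest, and those beside goblet genes. Members, lists and classes were chosen with earlier results of these data known. SEs and 95% intervals of log2 changes come from the edgeR fit and include the scatter between libraries, while the floor of 3 counts covers counting error only. Alternatives were 3 other scalings, library sizes with the unnamed rows, 2 other filters, DESeq2 1.42.0, limma 3.58.1 voom, no robust estimation, a block for the replicate number, and leaving out each library in turn. Tables and plots were made in Python 3.11.15.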

Additional observations from a re-analysis of the deposited data

How the results depend on the processing

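Across 16 alternatives the count of loci called higher was 40 to 48 and that of loci called lower 11 to 16, and 35 of the 44 higher and 11 of the 12 lower calls were made in every one. Leaving out a library gave 40 to 48 higher and 11 to 16 lower. For the HERV-H-noted loci, a class made after seeing the data, the same alternatives gave 17 to 20 higher and 0 lower, and 19 higher when overlapping rows were counted once (chosen after seeing the data). With the replicate number as a block, 43 loci were higher and 12 lower, and of the loci named only locus 45 lost its call. Same-numbered libraries of the groups correlated at 0.03, -0.07 and -0.10 in their deviations from the group means, so the numbers were not taken to pair them. Of the values of the named loci under alternatives, 403 kept direction and side of the threshold and 13 lost the call (loci 50, 45, 41 and 42), and 0 changed sign. Without the locus with most counts the mean share of counts in unnamed rows was 0.124% in wild type and 0.206% in the knockout-labelled libraries, against 0.138% and 0.232% with it. Depth limits the 73 loci with at most 56 counts, which were not tested.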
